A study of Haplochromis burtoni and Eretmodus cyanostictus and Lepidiolamprologus attenuatus with 30 samples.

Results

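The intestine of Eretmodus cyanostictus was compared with the intestines of Haplochromis burtoni (also called Astatotilapia burtoni) and Lepidiolamprologus attenuatus by bulk RNA sequencing, to find which genes set E. cyanostictus apart from both other species in the same direction. The members were the 10 libraries of 2 E. cyanostictus fish, out of 30 libraries of 6 fish from 3 species. In each fish the intestine had been cut by length into 5 equal sections, from section 1 (most anterior) to section 5 (most posterior), and each section gave its own library. The counts of the 5 sections were added up, so that each fish was 1 sample of the whole intestine and each species had 2 fish. The E. cyanostictus fish carry the numbers 3 and 4 in the table's column names, the H. burtoni fish 1 and 2, and the L. attenuatus fish 6 and 7. The labels name no treatment for any fish, and age, sex, diet and whether the fish were wild-caught or bred are not given in the sources used here. With 2 fish per species, a difference between species cannot be told apart from a difference in any condition that was shared by the fish of a species.

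E. cyanostictus is one of the goby cichlids of Lake Tanganyika, which live on the surf-washed rocky shore and scrape algae from stones. L. attenuatus is a predator of the same lake, and H. burtoni is a generalist of the lake margins and inflowing rivers. In cichlids, as in other fishes, plant and algal feeders tend to have long intestines for their body size and predators short ones. The anterior intestine is the main site of nutrient uptake, and the posterior part is known for uptake of whole proteins and for salt and water balance. The deposited table identifies genes by numeric IDs that matched none of the gene IDs in the reference table of H. burtoni, so genes are described here by ID, level and place along the gut. Functions, gene groups and cell type markers were not examined, and the labelled tissue was not checked against markers.

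The summed libraries held 39593469 to 46527681 counts on genes per fish, with 43324824 in fish 3 and 46527681 in fish 4, so fish 3 lay within the range of the others and fish 4 just above its highest total, 46443362. Reads overlapping no annotated gene sequence made up 7.58% of the counts of fish 3 and 8.62% of those of fish 4, within the 6.82% to 9.84% of the other 4 fish. More than 3 counts were found at 25742 and 26140 IDs in fish 3 and 4, and at 25039 to 25557 IDs in the others. The 10 most abundant IDs took 6.80% and 4.10% of the counts of fish 3 and 4, less than the 8.16% to 11.1% of the other fish. The TMM factors that correct for such differences in makeup were likewise highest in E. cyanostictus, at 1.04 and 1.20 against 0.895 to 0.987. The genome and annotation behind the counts are not given. The IDs are not those of the H. burtoni table and may come from the annotation of a further species, on which the reads of all fish would then have been counted. Every difference below therefore includes any difference between species in how well reads align. That part of the differences was not tested.

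Against the mean of both other species, 3868 of 24792 tested IDs differed in E. cyanostictus (15.6%), 2309 of them higher (9.31%) and 1559 lower (6.29%). The test was edgeR's quasi-likelihood F-test after TMM scaling (trimmed mean of M values) of the libraries, with Benjamini-Hochberg adjusted p under 0.05 and the mean taken on the log scale. A mean of 2 species can hide a difference from only 1 of them, so the calls were divided by each species' own comparison. Of the 3868 IDs, 806 were called against H. burtoni but not L. attenuatus, 1438 against L. attenuatus but not H. burtoni, and 167 against neither alone, which leaves 1457 called against both. For 184 of the 3868 the 2 estimated differences had opposite signs, which places the estimate of E. cyanostictus between the other species. Only 7 of these were called against both species in opposite directions, so for the rest a position between the species is not established.

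IDs were then required to be called against each species separately and to differ in the same direction. There were 1450 such IDs (5.85% of those tested), of which 876 were higher than both other species (3.53%) and 574 lower than both (2.32%). A further 106 IDs were called against both but in opposite directions. In every one of the 876 and 574 IDs, both E. cyanostictus fish lay outside the range of the other 4 fish. Over all tested IDs, 16.1% showed such a separation on the higher side and 15.2% on the lower side. The IDs were chosen by tests on these same sums, so their separation is largely built in and adds no separate evidence. The same rule gave 1382 IDs (5.57%) that set H. burtoni apart from the other species and 1977 (7.97%) for L. attenuatus, and the differences among these 3 counts were not tested. The comparisons with H. burtoni and with L. attenuatus use the same 2 E. cyanostictus fish, so an unusual value in fish 3 or 4 enters both.

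**Figure D1:**
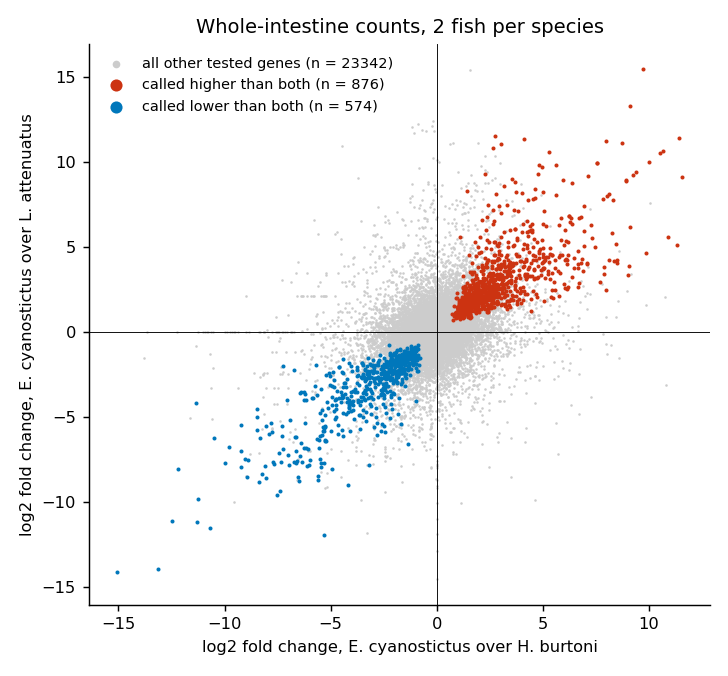
Log2 fold change of E. cyanostictus over H. burtoni (horizontal axis) and over L. attenuatus (vertical axis) for each of the 24792 tested IDs, from counts summed over the intestine with 2 fish per species. The 876 IDs called higher than both species lie in the upper right and the 574 called lower than both in the lower left; many uncalled IDs in the same quadrants have changes of similar size.

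The count of 1450 fell when any single fish other than fish 3 was left out, and leaving out fish 3 changed which IDs were called. It was 104 without fish 1 and 102 without fish 2, 488 without fish 6 and 310 without fish 7, and 908 without fish 4. Without fish 3 it rose to 1930, of which 1015 were among the 1450 with the same direction. In these fits the lone fish of a species is assumed to vary like the fish of the others. The calls against the mean moved likewise, to 1086 and 1044 without fish 1 and 2, to 1873 and 1347 without fish 6 and 7, and to 2241 without fish 4. At an adjusted p under 0.01, 176 IDs differed from both species.

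Among the IDs that differed from both species, the excess of higher over lower IDs was not stable. It turned to 86 higher and 90 lower at an adjusted p under 0.01, and to 26 higher and 78 lower without fish 1 and 25 higher and 77 lower without fish 2. Scaling to library totals alone, which raised the median change of all tested IDs against the mean to 0.25 on the log2 scale from 0.01, gave 1159 higher and 422 lower. Under that scaling the calls against the mean were 3380 higher and 1165 lower. The calls against the mean held more higher than lower IDs in each setting tried, with 52.4% to 74.4% higher, for example 552 higher and 271 lower at an adjusted p under 0.01.

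**Figure D2:**
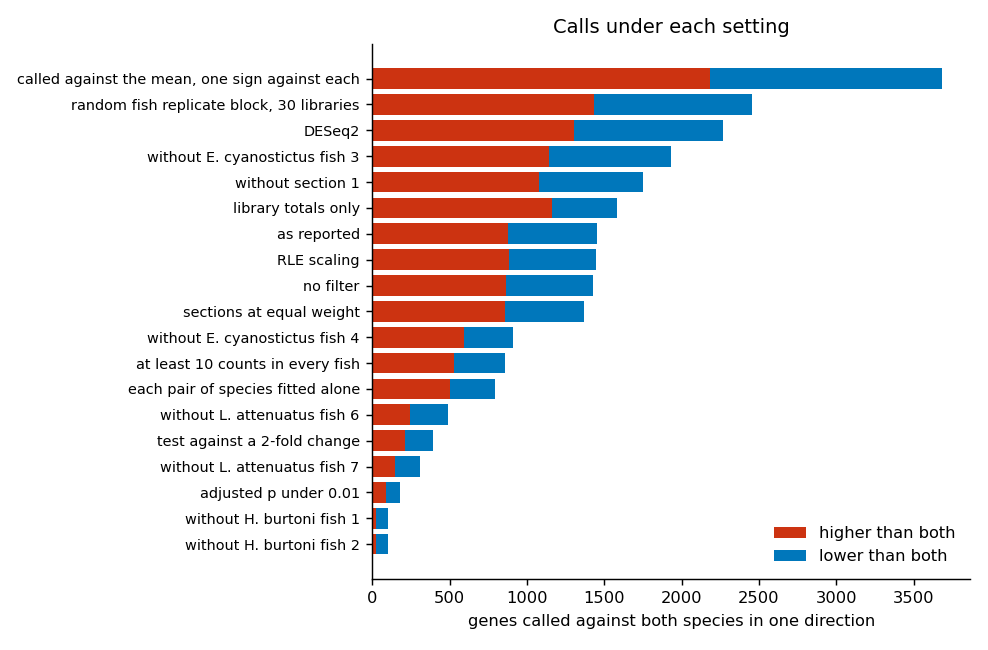
Number of IDs called against both other species in the same direction (horizontal axis, divided into higher and lower than both) under each setting of the processing (vertical axis). The count of 1450 as reported falls to 104 and 102 when fish 1 or fish 2 of H. burtoni is left out, and rises to 2456 when all 30 libraries are fitted with the fish as a random block. That fit tests 22430 IDs on log levels averaged over the sections. It takes 1 correlation (0.379) for the libraries of a fish, so the sections act as partial replicates. Its count is therefore not a like measure.

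The median changes were of similar size against both species, while single IDs could differ more between the comparisons. For the 876 higher IDs the median log2 fold change was 2.43 against H. burtoni and 2.49 against L. attenuatus, with counts under 3 per fish set to 3, so that IDs near 0 enter at a lower bound. For the 574 lower IDs the medians were -2.47 and -2.46. Over all tested IDs the fitted medians were 0.02 and 0.01. Limited to IDs with more than 3 counts in each of the 6 fish, the fitted medians were 2.08 and 2.14 for 648 higher IDs and -2.18 and -2.27 for 455 lower IDs. These sizes describe IDs chosen for being called and are not an estimate of the usual difference.

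Some of the differences were between presence and near absence. Among the higher IDs, 83 had at most 3 counts in each of the 4 H. burtoni and L. attenuatus fish. Among the lower IDs, 90 had at most 3 counts in both E. cyanostictus fish. Both groups were among the tested IDs only through the fish in which they were high. The share of all tested IDs with such a pattern is not given here. No fold change is given for these IDs, and their level in the fish in which they were high is not given either. In whole pieces of intestine, fewer cells of a type and less RNA per cell cannot be told apart, and this holds for each difference reported here.

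Most of the IDs were of modest abundance, and the median of the higher IDs in E. cyanostictus was not below that of all tested IDs. The median level of the higher IDs was 9.17 CPM (counts scaled to library size, with TMM) in E. cyanostictus, against 1.33 CPM in H. burtoni and 1.18 CPM in L. attenuatus, and the median of all tested IDs in E. cyanostictus was 7.37 CPM. The lower IDs had medians of 1.02 CPM in E. cyanostictus, 9.07 CPM in H. burtoni and 8.25 CPM in L. attenuatus. A level of at least 100 CPM in E. cyanostictus was reached by 46 higher IDs, and at least 1000 CPM by 1. On the lower side, 38 IDs were at 100 CPM or more in both other species, and 3 were at 1000 CPM or more. The share of all tested IDs that reached these levels is not given here.

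Of the 100 most abundant IDs in E. cyanostictus, 2 were higher than both other species and 1 was lower, beside 5.85% of all tested IDs, and 8 were called against the mean, beside 15.6%. None of the 20 most abundant was called against both in the same direction, and 1 of these 20 was called against the mean. By mean level over the species, 6.13% of 5024 IDs under 1 CPM were called against both species, 7.15% of 8414 IDs at 1 to 10 CPM, 5.27% of 9351 IDs at 10 to 100 CPM, and 2.35% of 2003 IDs at 100 CPM or more. The share was thus lowest in the most abundant class and did not fall steadily with level. The 2 E. cyanostictus fish were at least 2-fold apart, on log2(CPM + 1), at 1.47%, 11.8%, 14.3% and 20% of the IDs in these 4 classes. Because 1 is added to the CPM, IDs at low levels can seldom reach a 2-fold difference. These shares therefore do not compare the spread between classes, and the part of this spread in the share of calls was not tested.

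Taken by their share of the intestine's counts, the higher IDs made up 2.37% of the gene counts in fish 3 and 3.14% in fish 4. In the other fish they made up 0.67% and 0.643% (fish 1 and 2) and 0.601% and 0.552% (fish 6 and 7). The lower IDs made up 0.736% and 0.692% in fish 3 and 4, 2.66% and 2.60% in fish 1 and 2, and 3.15% and 3.41% in fish 6 and 7. The groups do not overlap, as the choice of the IDs required. The 10 most abundant members gave 20.2% of the counts of the higher IDs in E. cyanostictus and 49.3% of the counts of the lower IDs in the other species. The single most abundant member gave 5.55% and 23% of these counts, so the lower side was carried by fewer IDs.

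**Figure D3:**
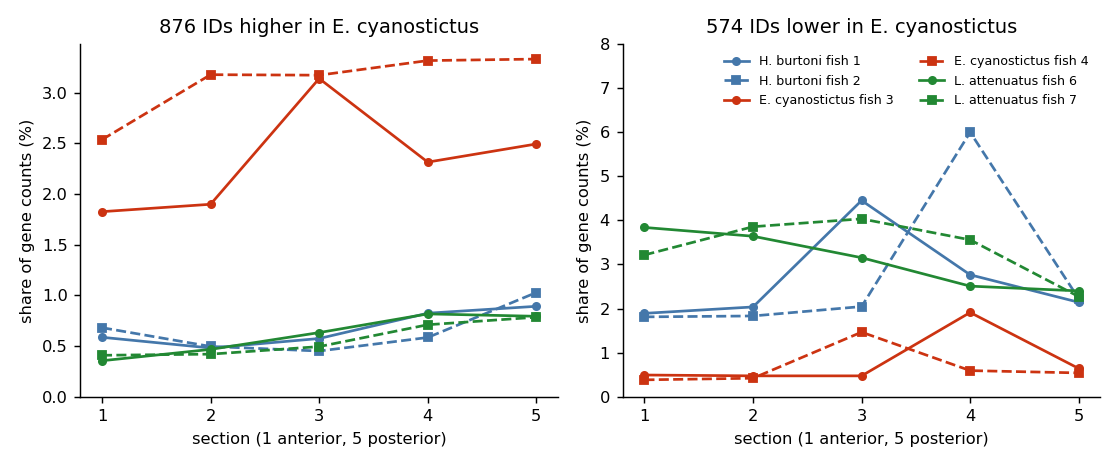
Share of each library's gene counts (vertical axis, percent) held by the 876 higher IDs (left) and the 574 lower IDs (right), by section (horizontal axis), with 1 line per fish. The higher IDs hold 1.83% to 3.33% in the E. cyanostictus libraries and at most 1.03% in the others. The lower IDs reach 1.91% in section 4 of fish 3 and 1.47% in section 3 of fish 4, above the other libraries of these fish. A single ID gives 0.873% and 0.672% of the counts in these libraries, and the other lower IDs give 1.04% and 0.794%. In the other libraries of fish 3 and 4 these other IDs give at most 0.642% and 0.593%. The 1.91% lies above section 1 of fish 1 (1.89%) and sections 1 and 2 of fish 2 (1.81% and 1.83%), so single libraries overlap.

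The difference was present along the whole gut for most of the IDs. In 821 of the 876 higher IDs the mean of E. cyanostictus was above the means of both other species in all 5 sections, and in 545 both of its fish were above all 4 other fish in all 5. Of the 574 lower IDs, 499 were below both species in all 5 sections and 345 had all fish apart in all 5. Among all tested IDs, 3508 were above both species and 2642 below both in all 5 sections. For the stricter rule of all fish apart, no count over all tested IDs is given, so 545 and 345 have no such background. The sections are parts of the sums that chose the IDs, so these counts describe the order of levels by section and add no separate evidence. In the library shares, fish 3 ranged from 1.83% in section 1 to 3.14% in section 3 for the higher IDs, and fish 4 from 2.54% in section 1 to 3.33% in section 5.

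Where the higher IDs peaked depended on the fish. In fish 3, 39.2% of them had their highest level in section 3, against 17.2% of all tested IDs, while in fish 4 the share was 14.7%, against 12.9%. In fish 4 section 4 was the most frequent peak, with 27.4% of the higher IDs, against 25.8% of all tested IDs. The most frequent peak therefore differed between the 2 fish. Section 1 was a less frequent peak for the higher IDs than for all tested IDs in both. The shares were 11.5% against 24.2% in fish 3 and 19.3% against 31.6% in fish 4. It was also less frequent in fish 6 (21.9% against 31.7%) and fish 7 (21.1% against 23.5%), but more frequent in fish 1 and 2.

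Each section was also tested on its own, with its 6 libraries. Against the mean of both species, 1 ID was called in section 1 (0.00504% of 19854 tested), 872 in section 2 (4.36%), 2556 in section 3 (12.6%), 1615 in section 4 (8.03%) and 4264 in section 5 (20.9%) (edgeR, adjusted p under 0.05). The single ID of section 1 was lower in E. cyanostictus, and 4034 IDs there had an unadjusted p under 0.05. In the other sections higher IDs outnumbered lower ones, with 580 and 292, 1611 and 945, 1037 and 578, and 2341 and 1923 from section 2 to section 5. Called against both species in the same direction were 1, 168 (0.84%), 861 (4.24%), 491 (2.44%) and 1512 (7.42%) IDs. Of these, 1, 156, 660, 391 and 730 were among the 1450 of the whole intestine with the same direction. Section 5 thus held 782 IDs that were not called against both species in the same direction in the sums. Some of these may still have been called there against the mean or against a single species. Of its 1512 IDs, 1470 had the direction of section 5 against both species in the sums. Each section is part of the sums, so such overlaps are partly built in and add no separate evidence.

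The section with the fewest calls was the one in which the 2 E. cyanostictus fish were least alike. Fish 3 and 4 were at least 2-fold apart at 29.7% of tested IDs in section 1, 21.3% in section 2, 12.8% in section 3, 6.83% in section 4 and 6.36% in section 5. For the 2 fish of H. burtoni the shares lay between 3.1% and 11.7%, and for those of L. attenuatus between 5.33% and 7.91%. These shares are over the 24792 IDs tested in the sums, on log2(CPM + 1). Over the 1450 IDs called against both species in the sums, fish 3 and 4 were apart at 25.6%, 20.1%, 17%, 15.2% and 13.8% from section 1 to section 5. In section 1, leaving out fish 3 raised the count to 4084, leaving out fish 4 raised it to 402, and leaving out any one of the other fish gave 0 calls, with 2583 to 2872 IDs at an unadjusted p under 0.05. The count of 1 therefore does not show that the species were alike in section 1. Leaving out any H. burtoni or L. attenuatus fish lowered the count in every section. In section 2 the counts were 13, 26, 156 and 50 without fish 1, 2, 6 and 7, and 1946 without fish 3. In section 3 they were 614, 240, 1468 and 767 without these 4 fish, and 1635 without fish 4. In section 4 they were 968 without fish 2, 626 and 468 without fish 6 and 7, 568 without fish 3 and 191 without fish 4. In section 5 they were 1722 and 1587 without fish 1 and 2, 2742 and 2728 without fish 6 and 7, and 1795 without fish 4. The order of the sections was not the same in these fits. With all 30 libraries in 1 fit, which has no term for the fish, sections 1 and 3 had nearly equal counts, 3967 and 3958. The sections are therefore not ranked here by their difference.

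**Figure D4:**
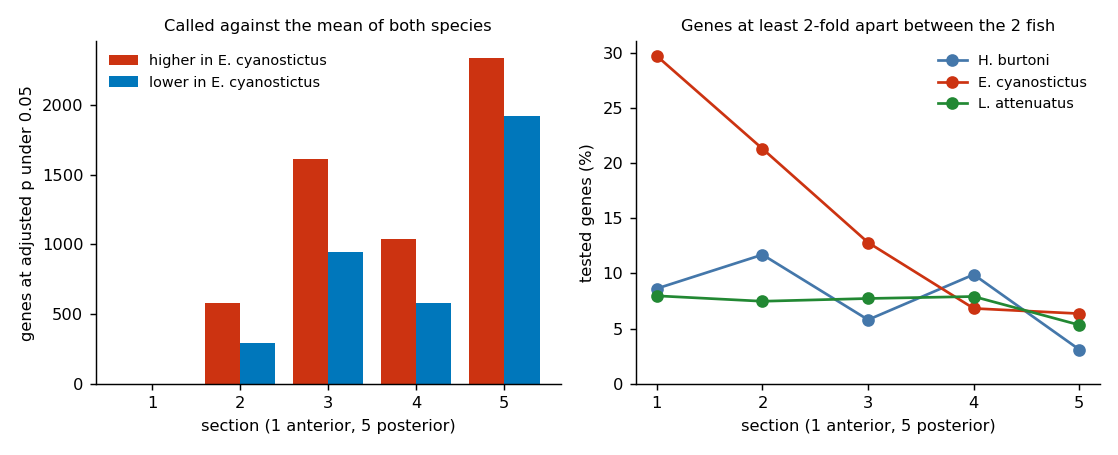
Left: IDs called in E. cyanostictus against the mean of both species in separate tests of each section (horizontal axis), divided into higher and lower. Right: percent of the IDs tested in the sums that were at least 2-fold apart between the 2 fish of a species. Calls run from 1 in section 1 to 4264 in section 5. The share of IDs apart between fish 3 and 4 falls from 29.7% to 6.36% over these sections. From section 3 to section 4 both fall, the calls from 2556 to 1615 and the share from 12.8% to 6.83%. A link between calls and share was not tested.

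Leaving section 1 out of the sums gave 1748 IDs that differed from both species in the same direction, 1075 higher and 673 lower, of which 1367 were among the 1450 with the same direction.

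Whether the difference itself changed along the gut was tested as the section profile of E. cyanostictus against the mean profile of the other species. It differed at 42 of 22430 IDs (0.187%; joint edgeR F-test over sections, adjusted p under 0.05), with 1393 at an unadjusted p under 0.05. With a fish block, so that each section is set against the others of its own fish, 328 IDs were called (1.46%), and all 42 were among them. Of the 1450 IDs, 1361 were tested for their profile, and 11 were called without the block and 61 with it. Without fish 1, 2, 6 or 7 the unblocked counts were 8, 9, 2 and 2.

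The table does not pair its numbers with names, and 4 IDs are given as examples of strong differences. They had at least 10 counts in each fish, at least 20 CPM in the higher species and the same direction in all 5 sections, and had the largest changes among the 268 higher and 188 lower IDs that met these criteria. Their changes are therefore at the far end of the range.

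Gene ID 100695458 was near absent outside E. cyanostictus. Fish 3 had 39.7 CPM and fish 4 had 25.1 CPM, against 0.584 and 0.273 CPM in fish 1 and 2 and 0.296 and 0.265 CPM in fish 6 and 7. The E. cyanostictus mean was 32.4 CPM ± 10.3 (SD, n = 2). Over H. burtoni the log2 fold change reached 6.23 (SE 0.49, edgeR adjusted p = 0.00381), and over L. attenuatus 6.84 (SE 0.51, edgeR adjusted p = 0.00313). In every section both E. cyanostictus fish were far above the other 4, with 13 to 66.7 CPM against at most 0.977 CPM. Its highest level was in section 4 of fish 3 and in section 3 of fish 4, at 66.7 and 41.2 CPM.

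Gene ID 100712484 was high in both E. cyanostictus fish but unequally, with 68.9 CPM (fish 3) and 13.6 CPM (fish 4). In fish 1 and 2 it was at 0.66 and 0.867 CPM, and in fish 6 and 7 at 0.646 and 0.409 CPM. Over H. burtoni the log2 fold change reached 5.75 (SE 0.86, edgeR adjusted p = 0.0147), and over L. attenuatus 6.29 (SE 0.89, edgeR adjusted p = 0.00931). The groups did not overlap in any section. Within E. cyanostictus this ID was highest in section 2, with 132 CPM (fish 3) and 24.1 CPM (fish 4), and lowest in section 4, at 13.7 and 4.79 CPM.

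Gene ID 100709377 was an anterior transcript in the other species and nearly missing from E. cyanostictus. It stood at 59.9 and 133 CPM in fish 1 and 2 and at 188 and 175 CPM in fish 6 and 7, but only at 1.57 CPM (fish 3) and 0.269 CPM (fish 4) in E. cyanostictus. Against H. burtoni its log2 fold change came to -6.73 (SE 0.91, edgeR adjusted p = 0.0117), and against L. attenuatus it was -7.64 (SE 0.94, edgeR adjusted p = 0.00706). In section 1 the other 4 fish held 256 to 618 CPM, fish 3 held 8.76 CPM and fish 4 held 0.569 CPM. By section 5 all fish were low, at 0 to 1.94 CPM, and the groups overlapped there.

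Gene ID 100708450 had the same anterior pattern. It stood at 239 and 35.2 CPM in fish 1 and 2, at 562 and 510 CPM in fish 6 and 7, and at 1.64 and 1.27 CPM in fish 3 and 4. It was lower by a log2 fold change of -6.56 than in H. burtoni (SE 0.99, edgeR adjusted p = 0.0148) and of -8.52 than in L. attenuatus (SE 1.07, edgeR adjusted p = 0.00743). In section 1 the other 4 fish ranged from 137 to 1762 CPM, while fish 3 and 4 held 4.38 and 1.37 CPM. In sections 4 and 5 the groups overlapped in level, with 0.822 to 1.25 CPM in E. cyanostictus and 0.871 to 11.3 CPM in the others. Its difference against the mean of both species was -7.54 with all fish. Without fish 4 it was -7.36 and missed the threshold (edgeR adjusted p = 0.06), with adjusted p from 7.25e-29 to 0.06 over the alternatives. Its section profile differed from the mean of the other species with the fish block (edgeR adjusted p = 0.0134, against 0.0605 without), whereas for the other 3 IDs the blocked edgeR adjusted p lay between 0.128 and 0.92.

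**Figure D5:**
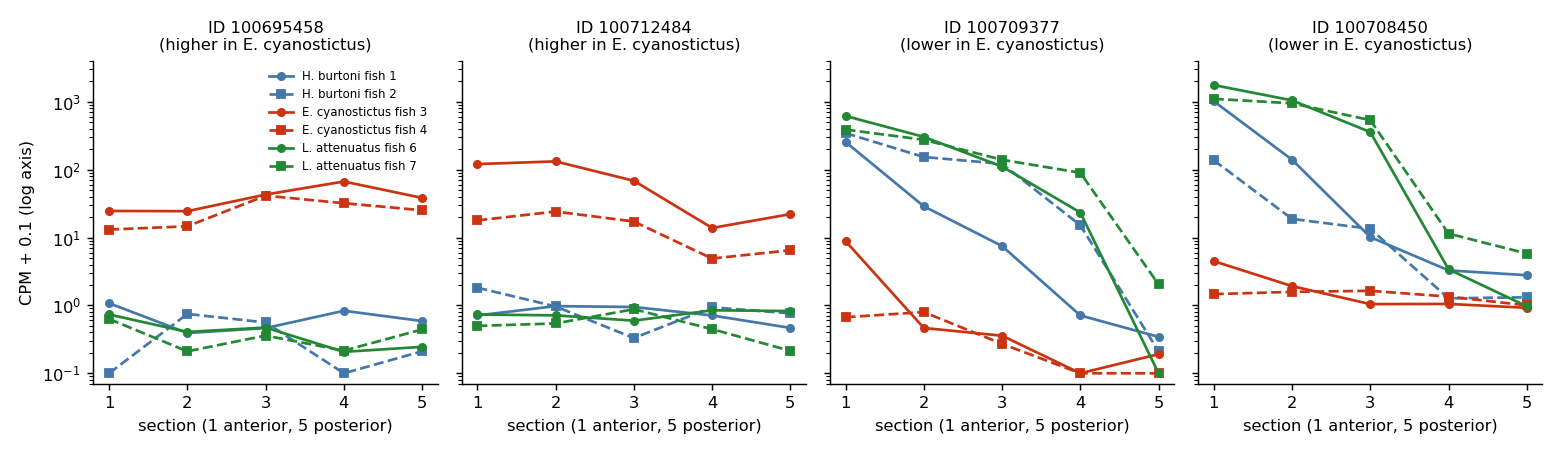
Level of 4 IDs (vertical axis, CPM + 0.1 on a log axis) by section (horizontal axis), with 1 line per fish. The E. cyanostictus lines lie above all others in every section for IDs 100695458 and 100712484, and below them in the anterior sections for IDs 100709377 and 100708450, where the lines approach each other in section 5.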

How the data were processed

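The authors deposited 1 table of raw counts per gene with 38425 gene rows and 30 columns, 1 per section and fish. Trimmomatic, STAR and HTSeq are named in the submitters' processing notes, without versions; genome build, annotation and strand handling are not given in the sources used here. Libraries held 6311892 to 11353391 counts on genes. The 5 special rows of unassigned reads were left out of library sizes and tests; 3 were 0 throughout, and the others held 6.15% to 16.5% (no gene) and 2.58% to 3.45% (several genes) of the counts. Paralogs and overlapping genes could not be told apart. No ID (0) matched the 28690 genes of the H. burtoni table of assembly NCSU_Asbu1, so the planned marker lists were not used and the rule for named genes gave 2 higher and 2 lower IDs.

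Species and section were taken from column names. Column numbers of E. cyanostictus (3, 4) and L. attenuatus (6, 7) are not the fish numbers of the labels (1, 2) and were kept as they are. Counts were summed per fish and analysed with edgeR 4.0.16 in R 4.3.3 (filterByExpr, TMM, robust quasi-likelihood fit of 3 species, Benjamini-Hochberg adjustment over all tested IDs, threshold 0.05). The SE was computed from the fold change and its F statistic. The alternatives used RLE or no scaling, DESeq2 1.42.0, limma 3.58.1 with the fish as a random block, other filters and thresholds, and the removal of each fish or of section 1. The floor was 3 counts per fish. P-values rest on the spread between the 2 fish of a species, estimated jointly over the 3 species. In the sums, the 2 E. cyanostictus fish were at least 2-fold apart, on log2(CPM + 1), at 11.3% of tested IDs. The shares were 2.66% in H. burtoni and 4.17% in L. attenuatus. A joint spread may therefore be too small for E. cyanostictus, and the adjusted p-values of its comparisons may be too low. This was not tested. The members, rules and lists were chosen with earlier results of these data known. The fits were tested on simulated data.

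Sections of 1 fish come from the same animal. Differences between the 2 fish of a species correlated across IDs in all 10 pairs of sections, with r from 0.203 to 0.708 in H. burtoni, 0.274 to 0.855 in E. cyanostictus and 0.316 to 0.72 in L. attenuatus, so the number pairs the sections of a fish. The section profile was nevertheless tested without the block first and with it as an alternative. Fish of different species are not paired.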

Additional observations from a re-analysis of the deposited data

Results flagged for a closer look

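The difference between E. cyanostictus and the other species changed along the gut at some IDs, by a direct test of the section profiles: 42 without the fish block and 328 with it (edgeR, adjusted p under 0.05). Among the 4 IDs described singly, the profile of gene ID 100708450 differed with the block (edgeR adjusted p = 0.0134). With 2 fish per species, single outlying fish could not be tested.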

How the results depend on the processing

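Counts within 1.5 times those reported were given by RLE scaling, library totals, no filter, sections at equal weight and the sums without section 1, for the calls against the mean and against both species. Calls against the mean (3868) became 2343 with at least 10 counts in every fish, 823 at adjusted p under 0.01, 1132 against a 2-fold change, 5847 with DESeq2, 424 with the other 4 fish as 1 group and 6373 with the random fish replicate block; they ranged from 1044 to 4508 without 1 fish. Calls against both species (1450) became 860, 176, 393 and 2269 under the first 4 of these, 2456 with the block, 795 with each pair of species fitted alone and 3684 when the mean had to be called with the same sign against each species; they ranged from 102 to 1930 without 1 fish. In the random block fit the sections of a fish act as partial replicates, so its counts are not a like measure. The fish numbers of the columns are not shared between species, so species were not paired by number. Section profile calls (42) became 5 at adjusted p under 0.01, 386 with DESeq2 and 328 with the fish block, and ranged from 2 to 51 without 1 fish. In section 1 the count (1) became 7 with RLE scaling, 275 without a filter, 1717 with DESeq2 and 3967 with all 30 libraries in 1 fit. Section 2 gave 2182, 2135 and 3438 under the last 3 of these. With all 30 libraries sections 3, 4 and 5 gave 3958, 2596 and 2741, and DESeq2 gave 2628 in section 4. Without 1 fish, sections 1 to 5 ranged from 0 to 4084, 13 to 1946, 240 to 2186, 191 to 1273 and 1587 to 3319. The causes of these shifts were not tested. Against the mean of both species, the 4 IDs kept their direction in all 10 alternatives each. Of these calls against the mean, 1 was lost. Whether the 4 IDs stayed called against each species separately is not given for the alternatives. As they were picked by the size of their difference between the same fish, a kept direction adds little evidence.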

Other observations

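The most abundant of the 574 lower IDs lay mainly in 1 library of each of 4 fish, a pattern noticed after its values were seen. Among the 24792 tested IDs, 2 stood at 10 times or more the median of the other sections in section 3 of fish 1, section 4 of fish 2, section 4 of fish 3 and section 3 of fish 4: this ID and a second one. Together they held 5.5% and 8.67% of the gene counts in those libraries of fish 1 and 2, and 2.93% and 2.25% in those of fish 3 and 4. In fish 3 and 4 the single library held 99.9% of the pair's counts in the fish, in fish 2 it held 99.6% and in fish 1 it held 85.5%. The rise was not confined to the pair. Without the first ID, the lower IDs held 3.06%, 3.80%, 1.04% and 0.794% in these libraries of fish 1 to 4. In the other libraries of the same fish they held at most 2.52%, 2.22%, 0.642% and 0.593%. In L. attenuatus the pair was spread over sections 1 to 3, at 1.98% to 2.84% in fish 6 and 1.59% to 2.36% in fish 7.

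The pair made up 0.452% and 0.462% of the counts of fish 3 and 4, and 1.31% to 1.7% of those of the other 4 fish. The ratio of the second ID to the first was 2.35 and 2.34 in E. cyanostictus, 2.94 and 2.95 in H. burtoni, and 0.54 and 0.5 in L. attenuatus, so the fish of a species were close to each other and the species were apart. The first ID had log2 fold changes of -1.5 against H. burtoni (edgeR adjusted p = 0.0474) and -3.18 against L. attenuatus (edgeR adjusted p = 0.0072). For the second ID they were -1.82 (edgeR adjusted p = 0.0333) and -1.01 (edgeR adjusted p = 0.117). If the IDs share reads as near-identical copies, their single levels are uncertain.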
